A study of Homo sapiens with 6 samples.

Results

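The axon guidance genes described here are those of the semaphorin, plexin, neuropilin, ephrin, Eph, netrin, UNC5, slit and ROBO families, matched by gene symbol. The symbol pattern matched 57 of the 11963 genes measured, through 93 of 19064 probe sets with 1 listed gene, and 1 probe set stood for each gene, the brightest over the 6 arrays. Of the 57, UNC50 shares only its letters with the netrin receptors and encodes a Golgi membrane protein, so that 56 are guidance genes. RNA was taken from T98G cells and from U87MG cells, both long-established human glioblastoma lines, and 3 arrays were run per line. T98G is described in the labels as undergoing apoptosis in response to bortezomib, a proteasome inhibitor, and to G5, a ubiquitin isopeptidase inhibitor, with partial protection from G5 necrosis. U87MG is described as withstanding the apoptosis that either compound causes while being sensitive to the G5 necrosis. Both lines were grown in the same serum-containing medium and no treatment of any array is named. Separate cultures are not mentioned for the replicates, and the p-values therefore cover array-to-array spread, which may be technical.

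Axon guidance cues steer growing axons and migrating cells by attraction or repulsion. Secreted or membrane-bound ligands (semaphorins, ephrins, netrins and slits) bind receptors (plexins with neuropilins, Eph receptor tyrosine kinases, DCC with UNC5, and ROBO proteins) that act on the actin cytoskeleton. Ephrins stay on the cell surface, so ephrin and Eph receptor signal in both directions between touching cells. In glioma several of these families are studied for their roles in invasion, cell sorting and blood vessel growth.

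Levels below are log2 values from RMA, a method that corrects background and scales arrays to each other, and differences are T98G minus U87MG on that scale, with their 95% interval from limma where a range follows in parentheses. A gene was called when its limma adjusted p was under 0.05 and its difference at least 2-fold. Because probes differ in brightness, levels were compared between lines and not between genes, except in sums of unlogged marker values. Those sums are governed by the brightest probe sets. In bulk RNA, fewer cells with a transcript and less of it per cell cannot be told apart. TrpnX control probe sets, made for a bacterial transcript, read 3.32 to 4.03. Array medians ran from 7.55 to 7.65. The mesenchymal and glioma-associated genes VIM and CD44 had levels of 14.59 and 13.93 in T98G and 14.85 and 13.68 in U87MG. The glial markers GFAP, OLIG2, S100B and SOX2 had mean levels of 4.13 (S100B) to 6.42 (GFAP) in T98G and 4.23 (S100B) to 6.52 (GFAP) in U87MG. U87MG replicate 3 had the lowest mean over 24 probe sets of spiked poly-A controls, 5.30 against 6.10 to 6.84 on the other arrays.

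Among the 57 genes, T98G and U87MG differed most in a slit and an ephrin, in opposite directions. SLIT2, a secreted repellent that binds ROBO receptors, was 39.0-fold higher in T98G, and EFNB2, a membrane ligand of EphB receptors and of EPHA4, was 32.8-fold lower. Of the 57 genes, 14 were higher in T98G (24.6%, against 7.01% of all genes tested), 5 were lower (8.77%, against 6.56%) and 38 were neither. In either direction 19 genes (33.3%) were called, against 13.6% of all genes tested. With no fold minimum, 26 of the 57 (45.6%) had an adjusted p under 0.05 at any size, against 41.3% of all genes, and the arrays of the lines did not overlap for 30 (52.6%), against 52.0% of all genes. The median difference was 0.07 for the 57 genes and 0.01 for all genes tested, and the median of the differences without their sign was 0.27 and 0.26. At least 8-fold differences were called for 3 of the 57 (SLIT2, EFNB2 and EPHA4), against 2.43% of all genes, and at least 32-fold for SLIT2 and EFNB2, 2 of the 57, against 0.493%. No test was made of the difference between these shares. Of 31 ligand genes 6 were higher and 3 lower in T98G, and of 25 receptor genes 8 were higher and 2 lower.

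**Figure D1:**
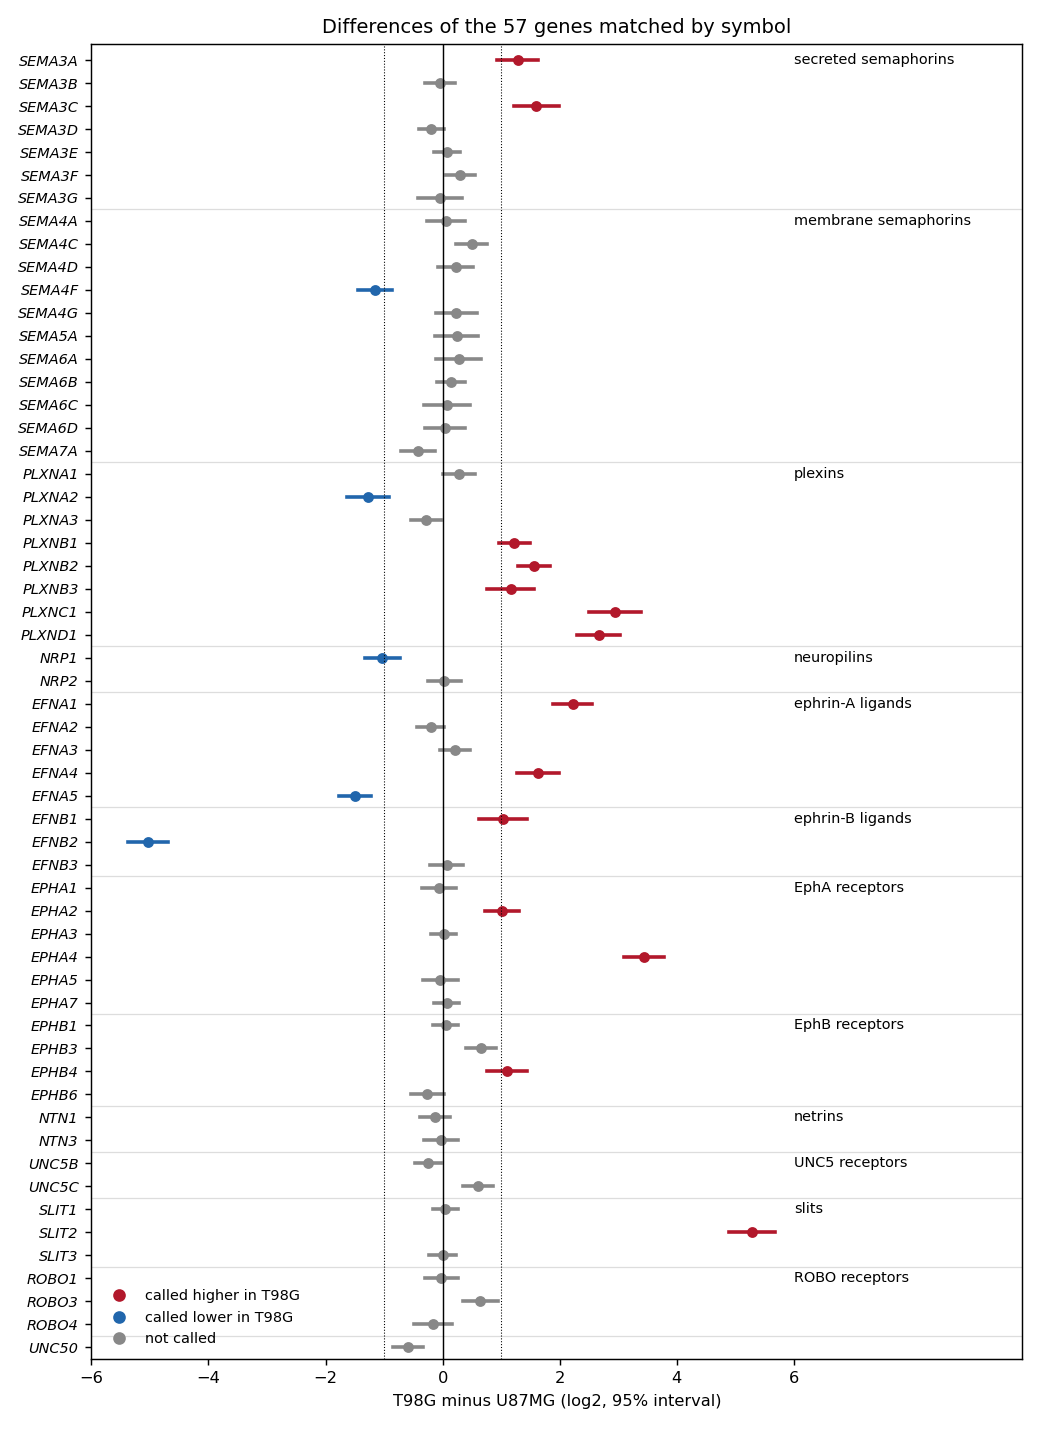
Difference between T98G and U87MG (log2, x axis) for each of the 57 genes matched by symbol, by family, with the 95% interval from limma. Red marks genes called higher in T98G (14), blue genes called lower (5) and grey the other 38, and the dotted lines mark a 2-fold difference. SLIT2 at 5.28 and EFNB2 at -5.03 lie farthest out.

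Among all 11963 genes, SLIT2 had the 38th and EFNB2 the 56th difference in size. Their promoters are shown with those of EPHA4 and EFNA5, which had the next differences in each direction among genes with a promoter entry. Each sequence holds the 250 bases before the annotated start, from RefSeq on GRCh38.p14, written along the gene's strand, with every match to the GC box (GGGCGG, bound by Sp-family factors, on either strand) in capitals. SLIT2 lies at chr4:20251655-20251904 (plus strand), EPHA4 at chr2:221574203-221574452 (minus strand), EFNB2 at chr13:106535663-106535912 (minus strand) and EFNA5 at chr5:107670938-107671187 (minus strand).
SLIT2: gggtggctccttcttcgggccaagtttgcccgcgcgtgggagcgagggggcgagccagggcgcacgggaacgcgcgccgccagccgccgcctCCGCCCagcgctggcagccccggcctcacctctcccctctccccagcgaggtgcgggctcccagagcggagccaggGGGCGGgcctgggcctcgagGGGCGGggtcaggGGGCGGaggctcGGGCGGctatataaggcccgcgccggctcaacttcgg
EPHA4: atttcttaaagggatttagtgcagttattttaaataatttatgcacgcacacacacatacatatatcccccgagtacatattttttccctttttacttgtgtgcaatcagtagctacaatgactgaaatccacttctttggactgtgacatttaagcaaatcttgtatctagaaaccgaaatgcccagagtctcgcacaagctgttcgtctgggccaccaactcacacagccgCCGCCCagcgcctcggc
EFNB2: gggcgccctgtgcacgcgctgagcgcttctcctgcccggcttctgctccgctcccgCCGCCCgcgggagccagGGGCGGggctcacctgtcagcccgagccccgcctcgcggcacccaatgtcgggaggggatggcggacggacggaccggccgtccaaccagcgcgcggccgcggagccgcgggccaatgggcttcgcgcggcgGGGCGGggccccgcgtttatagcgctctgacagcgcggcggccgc
EFNA5: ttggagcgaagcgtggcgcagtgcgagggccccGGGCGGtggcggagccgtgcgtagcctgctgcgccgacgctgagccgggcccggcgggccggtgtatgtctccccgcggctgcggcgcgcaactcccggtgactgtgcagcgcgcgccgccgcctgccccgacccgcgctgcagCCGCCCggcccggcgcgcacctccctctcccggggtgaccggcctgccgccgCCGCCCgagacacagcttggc
The windows of SLIT2, EFNB2 and EFNA5 held 30, 40 and 41 CpG dinucleotides and 77.2%, 78.4% and 79.6% G and C, and that of EPHA4 held 9 CpG and 43.2%. For all windows found for the 57 genes the medians were 17 CpG and 65.6%, against 19 and 63.6% for genes on the array. GC boxes numbered 5 in SLIT2, 3 in EFNB2, 3 in EFNA5 and 1 in EPHA4. A GC box was present in 38 of the 49 windows found for the 57 genes (77.6%), in 60.6% of 9563 windows of genes on the array and in 42.3% of all 27305 windows. TATAAA on either strand was present in 1 of the 49 (2.04%), EFNB2, on the strand opposite to the gene, against 7.93% and 11.1%. The arrays did not measure promoter activity, and other start sites were not examined.

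Among semaphorins, 2 of 7 secreted members were higher in T98G (28.6%, against 7.01% of all genes tested). Of 11 membrane members 1 was lower (9.09%, against 6.56% of all genes tested). SEMA3C, a secreted semaphorin that binds neuropilins and PLXND1 and is studied in glioma stem cells, had levels of 12.04, 11.76 and 12.004 on the T98G arrays and 10.47, 10.60 and 9.94 on the U87MG arrays. That is a 3.02-fold higher level in T98G, with both of its probe sets called (log2 1.59, SE 0.17, limma adjusted p = 5.16e-05, and 1.42 on the dimmer one). SEMA3A, the first described collapsing factor for growth cones, which acts through NRP1 and A-type plexins, had 8.59, 8.25 and 8.64 on the T98G arrays and 7.48, 7.19 and 6.96 on the U87MG arrays. It was 2.44-fold higher in T98G (log2 1.28, SE 0.16, limma adjusted p = 0.000121), with no overlap between the lines. SEMA4F, a transmembrane semaphorin, had 8.20, 8.25 and 8.55 on the T98G arrays and 9.29, 9.59 and 9.57 on the U87MG arrays. It was 2.22-fold lower in T98G (log2 -1.15, SE 0.13, limma adjusted p = 7.87e-05). Its other probe set had -0.63, in the same direction but short of 2-fold, and the mean of both, -0.89, was not called.

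Of the other 5 secreted semaphorins, SEMA3F passed the adjusted p alone (0.30, 0.06 to 0.54, limma adjusted p = 0.0489). SEMA3D, and SEMA3E, a ligand of PLXND1, read under the highest TrpnX value on all 6 arrays, so no difference could be read from them. SEMA3B and SEMA3G had differences of -0.05 and -0.04. In RefSeq gene order SEMA3E, SEMA3A and SEMA3D follow one another on chromosome 7, with SEMA3C nearby, and of the 4 only SEMA3C and SEMA3A were called. Of the other 10 membrane semaphorins, SEMA4C, a ligand of PLXNB2, had 0.50 (0.23 to 0.76) and SEMA7A, a GPI-anchored ligand of PLXNC1, -0.43 (-0.72 to -0.14), both under 2-fold at an adjusted p under 0.05. SEMA4D, a ligand of PLXNB1, had 0.22 (-0.08 to 0.52) and SEMA5A, a ligand of PLXNB3, 0.24 (-0.13 to 0.61). The remaining SEMA4A, SEMA4G, SEMA6A, SEMA6B, SEMA6C and SEMA6D ran from 0.04 (SEMA6D) to 0.27 (SEMA6A) and were not called.

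Of the 8 plexins, the signalling receptors of semaphorins, 5 were higher in T98G (against 7.01% of all genes tested), 1 was lower and 2 were neither, with a median difference of 1.19. On the mean of each gene's probe sets PLXNB1, PLXNB2 and PLXNA2 were not called. PLXNC1, the receptor of SEMA7A, had levels of 7.27, 7.25 and 8.05 on the T98G arrays and 4.60, 4.62 and 4.51 on the U87MG arrays. T98G replicate 3 was the highest of its line, the U87MG arrays lay close together, and the level was 7.69-fold higher in T98G (log2 2.94, SE 0.20, limma adjusted p = 1.98e-06). Its dimmer probe sets had 0.80 and 0.41. PLXND1, a plexin of blood vessels and developing neurons that binds SEMA3E directly, had 9.57, 9.40 and 10.02 on the T98G arrays and 7.16, 6.87 and 6.96 on the U87MG arrays. The lines stood 2.24 apart at their nearest arrays, a 6.35-fold higher level in T98G (log2 2.67, SE 0.16, limma adjusted p = 1.02e-06), and the second probe set, at 3.17, was called as well.

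All 3 B-type plexins, which bind transmembrane semaphorins, were higher in T98G. PLXNB2 had 11.32, 11.56 and 11.71 on the T98G arrays and 9.92, 9.89 and 10.10 on the U87MG arrays, a 2.95-fold difference (log2 1.56, SE 0.12, limma adjusted p = 7.05e-06). PLXNB1 had 8.10, 8.14 and 8.37 on the T98G arrays and 6.83, 7.06 and 7.07 on the U87MG arrays, 2.33-fold higher (log2 1.22, limma adjusted p = 2.59e-05). PLXNB3 had 8.03, 8.33 and 8.53 on the T98G arrays and 6.89, 7.02 and 7.50 on the U87MG arrays, 2.24-fold higher (log2 1.16, limma adjusted p = 0.000542). No T98G array of the 3 genes overlapped a U87MG array. Only 1 probe set each supported PLXNB2 and PLXNB1. The dim second set of PLXNB2, with 5.39 ± 0.18 in T98G and 5.51 ± 0.17 in U87MG, gave -0.11 and that of PLXNB1 0.16, and neither gene was called on the mean of its probe sets (0.72 and 0.69).

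The A-type plexins, which pair with neuropilins to receive secreted semaphorins, were not called higher. PLXNA2 had 7.53, 7.04 and 7.62 on the T98G arrays and 8.52, 8.83 and 8.67 on the U87MG arrays, 2.42-fold lower in T98G (log2 -1.28, SE 0.16, limma adjusted p = 0.000153). Its dimmer probe set had -0.17 and was not called, nor was the mean of both (-0.72). PLXNA1 had 0.28 (0.00 to 0.55, limma adjusted p = 0.104), with 0.28 on its other probe set, and PLXNA3 -0.29 (-0.54 to -0.03). NRP1, the co-receptor of SEMA3A that also binds VEGFA, had 10.91, 11.03 and 11.10 on the T98G arrays and 12.14, 12.21 and 11.78 on the U87MG arrays. It was 2.04-fold lower in T98G (log2 -1.03, SE 0.13, limma adjusted p = 0.000166), just past the 2-fold minimum. The call was lost without T98G replicate 1 (-0.98), U87MG replicate 1 (-0.98) or U87MG replicate 2 (-0.95) and on the mean of its 3 probe sets (-0.67). NRP2, which prefers SEMA3F, had 8.72 ± 0.08 in T98G and 8.69 ± 0.22 in U87MG, a difference of 0.03 (-0.26 to 0.31). Its 5 probe sets differed, from -0.31 to 0.62 (limma adjusted p = 0.00399 over all probe sets for 0.62), and none was called.

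**Figure D2:**
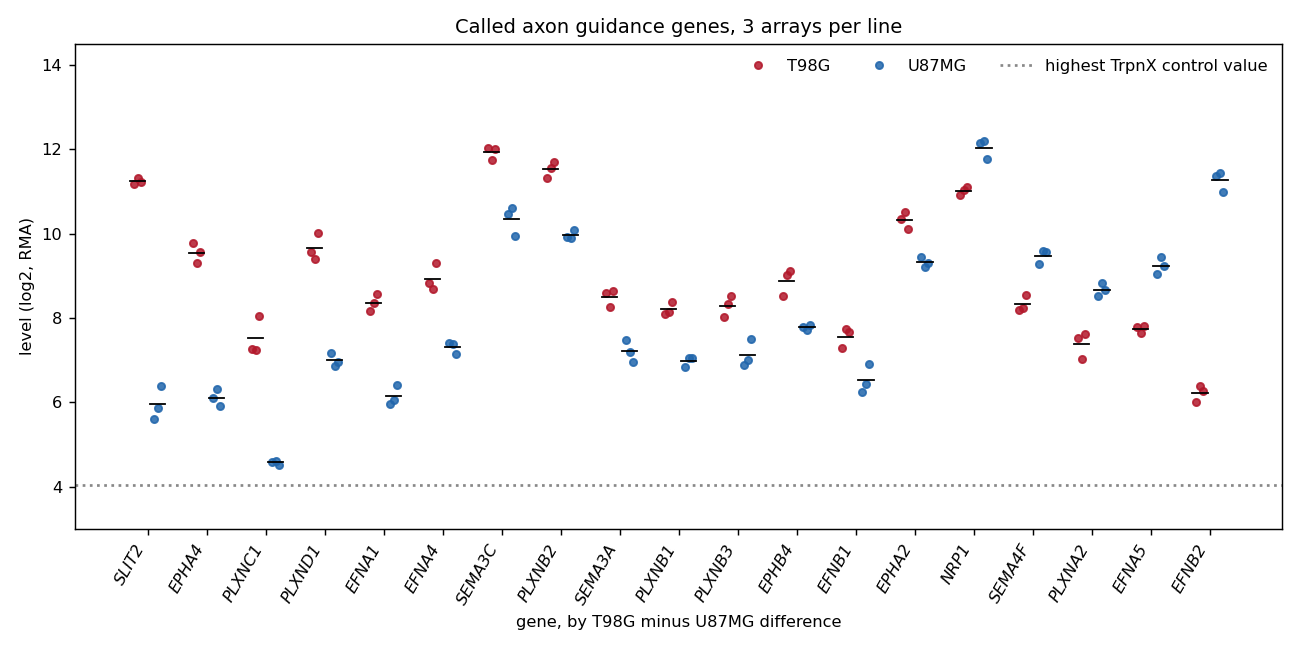
Level on each array (log2, y axis) of the 19 called genes, ordered by difference, with T98G in red on the left and U87MG in blue on the right of each gene. Black bars are the means of 3 arrays and the dotted line is the highest TrpnX control value, 4.03. In all 19 genes the 3 arrays of one line lie apart from the 3 of the other, as they do in 52% of all genes tested.

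Ephrins split between the lines. EFNB2 had levels of 6.01, 6.40 and 6.28 on the T98G arrays and 11.36, 11.45 and 10.98 on the U87MG arrays. All 3 U87MG arrays lay at least 4.58 above all T98G arrays, and the gene was 32.8-fold lower in T98G (log2 -5.03, SE 0.15, limma adjusted p = 1.04e-08). Its second probe set had 6.19 ± 0.07 in T98G and 10.75 ± 0.81 in U87MG, with U87MG replicate 3 at 9.82 below the other U87MG arrays at 11.17 and 11.26, and was called too (-4.56). EFNB1, another EphB ligand, had 7.29, 7.73 and 7.67 on the T98G arrays and 6.24, 6.44 and 6.92 on the U87MG arrays. It was 2.04-fold higher in T98G (log2 1.03, SE 0.18, limma adjusted p = 0.00142). The call of EFNB1 fell short of 2-fold without T98G replicate 2 (0.94), T98G replicate 3 (0.98), U87MG replicate 1 (0.88) or U87MG replicate 2 (0.98) and with quantile normalization repeated (0.99). EFNB3 had 0.07 (-0.21 to 0.35).

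The GPI-anchored ephrin-A genes also went both ways, with 2 of 5 higher in T98G and 1 lower (7.01% and 6.56% of all genes tested). EFNA1, first found as a gene induced by tumour necrosis factor and the best known ligand of EPHA2, had 8.17, 8.36 and 8.57 on the T98G arrays and 5.97, 6.05 and 6.41 on the U87MG arrays. It was 4.67-fold higher in T98G (log2 2.22, SE 0.15, limma adjusted p = 1.85e-06), and no array of the lines overlapped. EFNA4 had 8.83, 8.69 and 9.30 on the T98G arrays and 7.41, 7.38 and 7.14 on the U87MG arrays, 3.09-fold higher (log2 1.63, SE 0.16, limma adjusted p = 3.13e-05). EFNA5, which maps axons in the visual system, had 7.78, 7.64 and 7.81 on the T98G arrays and 9.05, 9.45 and 9.23 on the U87MG arrays. It was 2.82-fold lower in T98G on its brighter probe set (log2 -1.50, SE 0.12, limma adjusted p = 9.1e-06). The other probe set, with 5.06 ± 0.13 in T98G and 5.16 ± 0.29 in U87MG, had -0.11, and the mean of both, -0.80, was not called. EFNA4, EFNA3 and EFNA1 are consecutive genes on chromosome 1 in RefSeq order, and EFNA3 between them had 0.21 (-0.05 to 0.47). EFNA2 had -0.21 (-0.43 to 0.02).

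Of 10 Eph receptor genes, 3 were higher in T98G and 0 were lower by limma, with 0 lower at an unadjusted p under 0.05 either. Of all genes tested, 7.01% were called higher and 6.56% lower. EPHA4, a receptor that binds ephrins of both classes, EFNB2 included, had levels of 9.79, 9.30 and 9.58 on the T98G arrays and 6.11, 6.32 and 5.92 on the U87MG arrays. The lowest T98G array was 2.98 above the highest U87MG array, a 10.8-fold higher level in T98G on its 1 probe set (log2 3.44, SE 0.15, limma adjusted p = 9.69e-08). EPHB4, the receptor paired with EFNB2 in arteries and veins, had 8.51, 9.03 and 9.11 on the T98G arrays and 7.79, 7.72 and 7.85 on the U87MG arrays. It was 2.14-fold higher in T98G (log2 1.10, SE 0.15, limma adjusted p = 0.00031), while its second probe set had 0.46. The call was lost without T98G replicate 3 (0.99) and on the mean of both probe sets (0.78). EPHA2, a receptor often abundant in glioblastoma, had 10.36, 10.52 and 10.10 on the T98G arrays and 9.45, 9.21 and 9.30 on the U87MG arrays. At 2.01-fold it was the nearest of all called members to the 2-fold minimum (log2 1.01, SE 0.13, limma adjusted p = 0.000173). It fell under it without T98G replicate 1 (0.99), T98G replicate 2 (0.91), U87MG replicate 2 (0.95) or U87MG replicate 3 (0.997), and with arrays centred again (0.99) or quantile normalization repeated (0.98).

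EPHB3, which positions cells in the intestinal crypt, had 7.61 ± 0.17 in T98G and 6.96 ± 0.07 in U87MG, a difference of 0.65 (0.39 to 0.90) that passed the adjusted p but not 2-fold. EPHA7 read under the highest TrpnX value on all arrays. EPHA1, EPHA3, EPHB1 and the kinase-dead EPHB6 ran from -0.26 (EPHB6) to 0.06 (EPHB1). EPHA5 had -0.04 on its brighter probe set, but its second one, with 3.999 ± 0.20 in T98G and 5.55 ± 0.47 in U87MG, the T98G mean being under the highest TrpnX value, was lower in T98G by itself (-1.55, limma adjusted p = 0.000471 over all probe sets). EPHA5 was the only one of the 38 uncalled genes with a probe set that would be called.

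**Figure D3:**
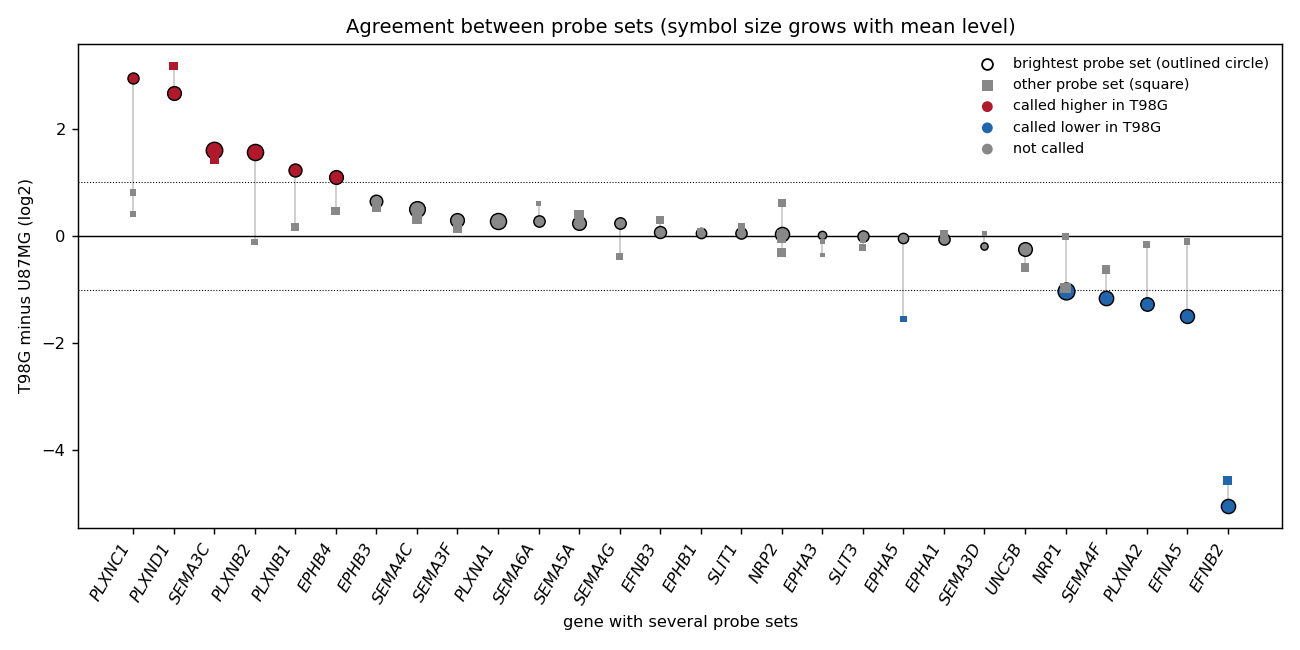
Difference between T98G and U87MG (log2, y axis) of every probe set of the 28 genes with several, circles being the brightest set of a gene and squares the others, with larger symbols for brighter sets. Red and blue mark sets called higher and lower in T98G when all probe sets are tested singly. SEMA3C, PLXND1 and EFNB2 are called on all their sets, and no gene has calls in opposite directions.

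Of the 11 called genes with several probe sets, 3 (SEMA3C, PLXND1 and EFNB2) were called on each of them, and none of the 57 genes had probe sets called in opposite directions. The other 8 rested on 1 probe set. SLIT2, EPHA4, EFNA1, EFNA4, SEMA3A, PLXNB3, EFNB1 and EPHA2 have 1 probe set each, so no second probe set bears on them. Those of SLIT2 and EFNA4 are of the _s_at type, which can match several transcripts.

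Netrins and UNC5 receptors gave 0 called genes of 4 by limma, with UNC5B and UNC5C at an unadjusted p under 0.05. NTN1, the founding netrin, had 4.88 ± 0.08 in T98G and 5.01 ± 0.17 in U87MG and NTN3 5.38 ± 0.21 in T98G and 5.40 ± 0.13 in U87MG, low levels with differences of -0.13 (-0.39 to 0.13) and -0.02 (-0.32 to 0.27). UNC5B, a repulsive netrin receptor and dependence receptor of vessels, had 8.16 ± 0.05 in T98G and 8.41 ± 0.09 in U87MG (-0.25, -0.47 to -0.02, limma adjusted p = 0.0747). Its second probe set had -0.59 (limma adjusted p = 0.014 over all probe sets), short of 2-fold, with no overlap between the lines. UNC5C had 4.25, 4.32 and 4.36 on the T98G arrays and 3.61, 3.61 and 3.91 on the U87MG arrays. All U87MG arrays of UNC5C read under the highest TrpnX value, beside which stands the difference of 0.60 (limma adjusted p = 0.00198). With readings under that value raised to it, the difference was 0.28, or 1.21-fold. UNC50, not a netrin receptor, had -0.59 (-0.85 to -0.34), also at an adjusted p under 0.05 and short of 2-fold.

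SLIT2 had levels of 11.18, 11.31 and 11.23 on the T98G arrays and 5.62, 5.87 and 6.39 on the U87MG arrays. The T98G arrays lay close together, while U87MG replicate 3 was the highest of its line, still 4.79 below every T98G array. The means were 11.24 ± 0.06 in T98G and 5.96 ± 0.39 in U87MG (SD, n = 3 arrays each), a 39.0-fold higher level in T98G (log2 5.28, SE 0.18, limma adjusted p = 2.01e-08). SLIT1 and SLIT3, its closest relatives, were not called. SLIT1 had 0.05 (-0.17 to 0.26) and SLIT3, on its brightest of 3 probe sets, 0.00 in size (-0.23 to 0.22). ROBO1, the main receptor of SLIT2, had 10.47, 10.41 and 10.82 on the T98G arrays and 10.60, 10.66 and 10.52 on the U87MG arrays. The lines overlapped for ROBO1, with a difference of -0.03 (-0.31 to 0.26, limma adjusted p = 0.906). ROBO3, which lets commissural axons cross the midline, had 0.64 (0.34 to 0.94), past the adjusted p but under 2-fold, and ROBO4, the endothelial member, -0.16 (-0.49 to 0.16).

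Without U87MG replicate 3, 13 genes were higher and 5 lower in T98G, with SLIT2 at 5.50, EFNB2 at -5.18, EPHA4 at 3.34 and PLXNC1 at 2.91. That array was the U87MG array nearest to the T98G mean for 9 of the 19 called members (47.4%) and for 668 of all 1624 called genes (41.1%). Of 5 endothelial markers (PECAM1, CDH5, VWF, TEK and TIE1) 0 were called by limma, with 1, TIE1, at an unadjusted p under 0.05 (log2 0.76, adjusted p = 0.00132). Their levels were 4.03 to 6.40 in T98G and 3.95 to 6.36 in U87MG, CDH5 being at the TrpnX level. Of 5 fibroblast markers COL3A1 was higher in T98G (5.22) and COL1A1 (-3.90) was lower. LUM was at least 2.93-fold lower in T98G, a bound set at the highest TrpnX value, under which all T98G arrays read. The sums of their 5 unlogged values were 12936 to 15932 in T98G and 10045 to 14492 in U87MG, most of it from COL1A2 (log2 0.64, not called). Of 4 measured neuron markers MAP2 was higher (2.02) and SNAP25 lower in T98G (-1.60). SYT1, at -0.9998 (limma adjusted p = 0.000515), fell just short of 2-fold, and STMN2 had 0.25. The sums of the 4 unlogged values were 489 to 622 in T98G and 845 to 1033 in U87MG. Of 4 leukocyte markers 0 were called by limma, with 0 at an adjusted p under 0.05, and of 3 epithelial markers 0 were called, with 1 at an adjusted p under 0.05. Of 7 glial or glioblastoma genes NES, a progenitor filament, was lower in T98G (-2.55). The part of these markers in the guidance gene differences was not tested.

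Partner genes of the same pathways, in 6 lists by function of which 5 are described, were called in 32 of 108 measured cases (29.6%, against 13.6% of all genes tested), 16 higher and 16 lower in T98G. The lists were chosen with earlier results of these data known, and the difference between these shares was not tested. Among other receptors and co-receptors, 4 of 20 were higher and 3 lower. L1CAM, an adhesion molecule that forms a SEMA3A receptor with NRP1, had 10.60 ± 0.13 in T98G and 4.87 ± 0.38 in U87MG (log2 5.73, and 0.81 on its other probe set), and NRCAM, a co-receptor of NRP2, 8.93 ± 0.52 in T98G and 4.79 ± 0.33 in U87MG (log2 4.14, 17.6-fold, and 1.003 on its other probe set). The receptor kinase gene ERBB2, whose product couples to B-type plexins, was higher by 4.83-fold in T98G (9.28 ± 0.08 in T98G and 7.01 ± 0.31 in U87MG), with 0.70, not called, on its other probe set. KDR, the VEGF receptor that partners NRP1, had 5.08, 5.06 and 4.93 on the T98G arrays and 8.004, 8.43 and 8.44 on the U87MG arrays. It was 9.61-fold lower in T98G (log2 -3.27, SE 0.13, limma adjusted p = 6.68e-08), and NCAM1, a neural adhesion molecule, was lower at log2 -3.96 (2 of its 4 probe sets called, and -1.58 on their mean). The netrin receptor gene NEO1, called higher and named after its values were seen, had 9.11 ± 0.17 in T98G and 7.93 ± 0.14 in U87MG (log2 1.19). Of 7 other ligands 1 was higher and 3 lower. The higher one was CXCL12, a chemokine that also guides axons, at log2 5.15. The lower ones, named after their values were seen, were VEGFA, a ligand of NRP1 and KDR (log2 -1.75, 4 of 4 probe sets called), HGF, the ligand of MET (log2 -1.02, 5 of 5 probe sets called, down to -5.55), and the membrane-anchored netrin NTNG1 (log2 -1.98). BMP7, also named after its values were seen, was not called on its brightest probe set (log2 0.25). Of its 4 probe sets 2 were called higher in T98G, and the differences of the 4 ran from 0.25 to 4.10.

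Downstream, among kinases and adaptors 1 was higher and 2 lower of 24 (12.5% called, against 13.6% of all genes tested). FYN, a Src-family kinase used by ephrin and SEMA3A signalling, had 8.04, 8.03 and 8.04 on the T98G arrays and 11.50, 11.47 and 11.09 on the U87MG arrays. It was 9.99-fold lower in T98G (log2 -3.32, SE 0.13, limma adjusted p = 4.07e-08), and all 3 of its probe sets were called. Of 19 cytoskeletal effectors 4 were higher and 1 lower (26.3% called). CRMP1, a collapsin response mediator that carries the SEMA3A signal to the cytoskeleton, had 10.08, 10.12 and 10.20 on the T98G arrays and 6.57, 7.63 and 8.23 on the U87MG arrays. The U87MG arrays of CRMP1 were spread widely (SD 0.84), all below T98G, and the level was 6.31-fold higher in T98G (log2 2.66, SE 0.33, limma adjusted p = 0.000149). Proteases and heparan sulphate genes had 3 higher and 2 lower of 16 (31.2% called).

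**Figure D4:**
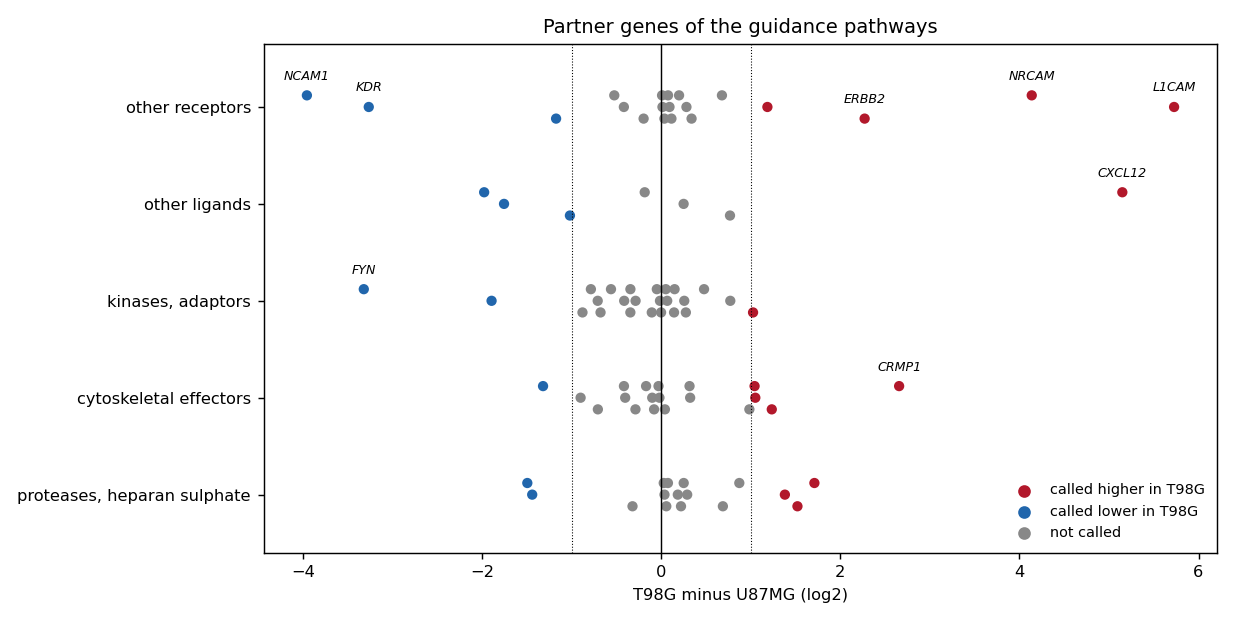
Difference between T98G and U87MG (log2, x axis) of the 86 measured partner genes of 5 lists, 1 row per list, with red for genes called higher in T98G (13), blue for lower (11) and grey for the rest. The 8 labelled genes are, within these lists, those among the 5 largest called differences of all 108 partner genes in each direction, from L1CAM at 5.73 to NCAM1 at -3.96.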

How the data were processed

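Total RNA of T98G and U87MG cells was amplified in 1 cycle, labelled with biotin and hybridised to Affymetrix arrays, 3 per line, per the labels' protocols. The values the authors deposited are on a log2 scale, 1 per probe set and array. The submitters' processing notes list RMA and limma, and their versions are not given in the sources used here. The background step of RMA can compress differences of dim transcripts, and its scaling can hide a change in total RNA. Scan dates and detection calls were not used. Of 22277 probe sets, 62 were controls, 19064 had 1 gene in the platform annotation, 1043 had several and 2108 none. Members were matched on the platform symbol, and symbols of all genes were updated through Entrez identifiers in RefSeq (GRCh38.p14, 19052 matched), which changed no member's symbol.

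For the difference T98G minus U87MG, a linear model was fitted to all genes with lmFit and moderated with eBayes (limma 3.58.1, R 4.3.3). Its tests are two-sided with 4 residual degrees of freedom per gene, and p-values were adjusted by Benjamini-Hochberg over 11963 genes, each with its brightest probe set. Intervals are 95% intervals from limma. Precision is limited by the number of arrays, and the residual SD had a median of 0.146 log2 units. The steps were tested on simulated data. Values are given on each array for called members, other members by their range, and partner genes for up to 5 called per direction with the largest difference and no overlap between lines. The members and lists were chosen with earlier results of these data known. Of 129 listed partner genes, 108 were measured, and 1 of the 6 partner lists is not reported here. The alternatives tried were a stricter adjusted p, no fold minimum, treat from limma, removal of dim probe sets, other choices of probe set, repeated scaling, another variance model, the replicate number as a block and removal of each array.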

Additional observations from a re-analysis of the deposited data

How the results depend on the processing

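The 14 genes higher and 5 lower in T98G became 8 and 2 under limma's treat, which asks for more than 2-fold. Of all genes tested, 7.3% passed treat. Removing probe sets ending in _x_at, _s_at or _a_at left 46 of the 57 genes, with 9 higher and 3 lower, and 13.1% of 8369 genes called. When the probe sets of each gene were averaged, 11 were higher and 1, EFNB2, was lower, against 12.5% of all genes called. Removal of multiply matching probe sets turned PLXNB2 to -0.11, on its dim second probe set, left PLXNA2 at -0.17, and gave no value for SLIT2, EFNA4, SEMA3C, PLXNB1 and SEMA4F. Leaving out 1 array gave 12 to 13 higher and 4 to 5 lower. Of the 16 partner genes higher and 16 lower, 8 and 8 passed treat. With no fold minimum, 28 partner genes were higher and 30 lower (53.7%, against 41.3% of all genes). Without multiply matching probe sets 8 were higher, and leaving out 1 array gave 14 to 17 higher and 15 to 16 lower. For the 26 members with an adjusted p under 0.05, 304 of the values under 13 alternatives kept their direction and side of the threshold, 23 lost the call, 0 gained one and 1 reversed. Of the 26, 7 were not called at the start and had no call to lose. Genes left without a value under an alternative are not in these counts, and treat is not among the 13. The 8 partner genes named by size kept their direction and call under the alternatives that did not remove their probe set. That check was added after seeing the data. ERBB2, FYN and NRCAM were called on probe sets ending in _s_at, which 1 of the 13 alternatives removes. The filter on dim probe sets left 28 of the 57 genes, PLXNC1 and EFNB1 not among them, with 12 higher and 5 lower. Under that filter 18.8% of 7011 genes were called. It kept a probe set when the higher of its line means passed the median level, so a gene could enter through the line where it is high.

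Arrays with the same replicate number deviated together at r = 0.15, 0.07 and 0.04, not all over 0.1, so the numbers were not taken as pairs, although 5 of 6 arrays correlated best with their own number. With the replicate block 14 members were higher and 5 lower, 16 and 16 partner genes, and 840 and 786 of all genes, against 839 and 785 without it. Each line had 3 arrays of unknown independence. Differences of dim probe sets depend on the background correction, which could not be varied from these values. Tests of all probe sets singly found 14 members higher and 6 lower with any called set.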
